A study of Mus musculus with 8 samples.

Results

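The genes described here build and run the machinery that copies DNA in S phase, together with the cyclins, E2F factors and chromatin assembly proteins that go with it. They were chosen by name from a list of 55 symbols, and 53 of them stood in the deposited table of 14145 genes; Mcm10 and Fen1 were not analysed here. Expression was measured by RNA-seq in cultured mouse primary tubular epithelial cells, the cells that line the kidney tubule, in 4 KO and 4 WT libraries. The KO cells came from Aldh2TEC-KO mice, by their name a deletion of Aldh2 in tubular epithelial cells, and the WT cells from Aldh2Ctrl mice. Both were grown in medium with fetal bovine serum and left untreated. Aldh2 encodes a mitochondrial enzyme that oxidises acetaldehyde and other aldehydes. Groups follow the sample titles, because the genotype field of the KO samples runs through the names ALDH2, ALDH3, ALDH4 and ALDH5. The labels give no strain, age, promoter driving the deletion or number of animals, so the p-values describe the spread between libraries, whether or not it is biological. Values are FPKM, reads scaled to gene length and library depth, so levels of different genes can be set side by side per length.

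Replication begins when the origin recognition complex (ORC), Cdc6 and Cdt1 load the MCM helicase onto DNA, a step that geminin blocks by binding Cdt1. Cdc45 and the GINS complex then switch the helicase on, DNA polymerase alpha with primase starts each strand, polymerases delta and epsilon extend it on the PCNA clamp, and ligase seals the fragments. Cyclin D and cyclin E kinases release E2F factors from the retinoblastoma protein, and E2F factors switch on most of these genes. Tubular epithelium of the adult kidney divides rarely, and it enters the cycle after injury or when grown in culture.

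Depth was 17890000 to 18750000 reads or fragments per KO library and 17040000 to 17750000 per WT library, and the 53 genes had between 17 and 29641 reads in a library. Aldh2 was at 1.24 ± 0.31 FPKM in KO and 26.4 ± 3.24 FPKM in WT libraries (SD, n = 4 each), so each library carried the level its title implies. The 4 KO libraries were not alike. Xist was at 14.53 and 38.31 FPKM in KO 1 and KO 2 and at no more than 0.01 FPKM in the other 6 libraries. By Xist, KO 1 and KO 2 came from female and the others from male cells. The Y-linked Ddx3y was at 1.48 and 4.39 FPKM in KO 3 and KO 4 and at 6.15 to 15.51 FPKM in WT. Uty, Kdm5d and Eif2s3y, also Y-linked, were likewise lower in KO 3 and KO 4 than in every WT library, and the reason was not tested. In KO 3 and KO 4 mitochondrially encoded transcripts were low (library medians of -1.65 and -1.44 on the log2 scale against the WT mean, and 0.40 and 0.20 in KO 1 and KO 2). GC-rich transcripts were high and GC-poor ones low in KO 3 and KO 4, as set out with the replication genes. Tubular identity was present throughout: Cdh16, a kidney-specific cadherin, was at 66.11 to 203.97 FPKM in KO and 57.77 to 255.16 FPKM in WT libraries.

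Many replication genes are textbook E2F targets, and the words that E2F proteins bind were looked for in the RefSeq promoter windows (GRCm38.p6, from 250 bases before to 50 bases after the annotated start). The words were TTTCCCGC, TTTCGCGC, TTTGCCGC and TTTGGCGC on either strand. Of the 53 genes, 42 matched a promoter by symbol, and 17 of these (40.5%) held a word, against 704 of 27025 genes with a promoter (2.60%) and 458 of 9936 in the deposited table (4.61%). Among further replication factors, listed with the other genes of the pathway, 9 of 31 (29.0%) held a word, and in the mitosis list 1 of 24 (4.17%). By role the share was 4 of 5 MCM genes, 4 of 8 licensing genes, 4 of 7 polymerase genes, 2 of 9 clamp, loader and ligase genes and 0 of 4 nucleotide supply genes. The words are a description of the letters and were not tested for binding. The 250 bases before the start are shown for Mcm6 and Pola1, the 2 genes with a word and the lowest p in the KO comparison, with the words in capitals. Mcm6 lies on the minus strand at chr1:128359706-128359955 and Pola1 on the minus strand at chrX:93632156-93632405.
Mcm6: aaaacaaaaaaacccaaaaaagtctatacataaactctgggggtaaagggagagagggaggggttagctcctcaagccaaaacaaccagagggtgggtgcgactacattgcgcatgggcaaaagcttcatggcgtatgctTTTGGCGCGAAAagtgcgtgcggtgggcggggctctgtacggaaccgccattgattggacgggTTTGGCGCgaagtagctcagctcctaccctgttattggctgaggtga
Pola1: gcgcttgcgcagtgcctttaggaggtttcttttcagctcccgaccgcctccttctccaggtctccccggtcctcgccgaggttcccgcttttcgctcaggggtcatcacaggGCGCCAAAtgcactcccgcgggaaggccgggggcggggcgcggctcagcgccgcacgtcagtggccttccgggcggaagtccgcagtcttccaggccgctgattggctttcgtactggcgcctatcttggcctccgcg
The Mcm6 window holds 3 words: 1 that starts 110 bases before the transcription start, another 47 bases before it, and a further one on the other strand that overlaps the first. The next 4 genes by p each held 1 word, shown with 11 bases on each side: Cdc6 (plus strand, chr11:98908002-98908031), Uhrf1 (plus strand, chr17:56304117-56304146), Gins3 (plus strand, chr8:95633507-95633536) and Pold3 (minus strand, chr7:100121467-100121496).
Cdc6: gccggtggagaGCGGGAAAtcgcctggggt
Uhrf1: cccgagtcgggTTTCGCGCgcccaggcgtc
Gins3: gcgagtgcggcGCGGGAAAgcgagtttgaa
Pold3: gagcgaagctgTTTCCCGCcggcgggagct

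No common shift of the replication genes between KO and WT cells was detected. None of the 53 passed the threshold (limma on log2(FPKM + 1), adjusted p below 0.05 over all 14145 genes), where 0.0778% of all genes did. At an unadjusted p below 0.05 there were 3 replication genes, Rfc2, Gins2 and Ccnd3, all with the higher mean in KO, against a background of 19.2% of all genes in both directions and 7.58% higher in KO. The mean was higher in KO for 21 genes and lower for 32, with a median log2 difference of -0.07, and over all genes 55.5% were lower with a median of -0.06. Counts of higher and lower KO means, here and below, use the log2(FPKM + 1) scale. On it Mcm5 and Chaf1a are lower in KO although their FPKM means are slightly higher. The groups did not overlap for 2 genes, Rfc2 and Ccnd3, both higher in KO; over all genes the share without overlap was 11.6%, with 4.76% higher and 6.86% lower in KO. By the authors' deposited adjusted p-values, 0 of the 53 replication genes were below 0.05, and only 53 of all 14145 genes were. The authors' up or down mark was carried by 0 of the 53 replication genes and by 808 of all genes. The intervals were wide: for Mcm4, a helicase subunit, the 95% interval of the log2 difference ran from -1.16 to 0.06, and for Mcm7, with a small spread, from -0.32 to 0.41.

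In several refits the test again called 0 of the 53. The share of the whole table called was 0.00707% with the replicate number as a block or without any of KO 1, KO 4, WT 1, WT 2 and WT 3. It was 0.0142% with length and GC trends removed and 0.0212% at a pseudocount of 0.1 or without KO 3. By limma-voom without sample weights it was 0.0495%, and without WT 4 it was 0.0566%. With low genes filtered out it was 0.0998%, and 48 of the 53 remained. Without KO 2 it was 8.05%, or 1139 genes. Other refits did call replication genes. These were 12 of 53 with sex as a term (34.2% of all genes) and 17 without KO 1 and KO 2 (44.4%). By limma-voom with sample weights 20 were called (53.1% of all genes).

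**Figure D1:**
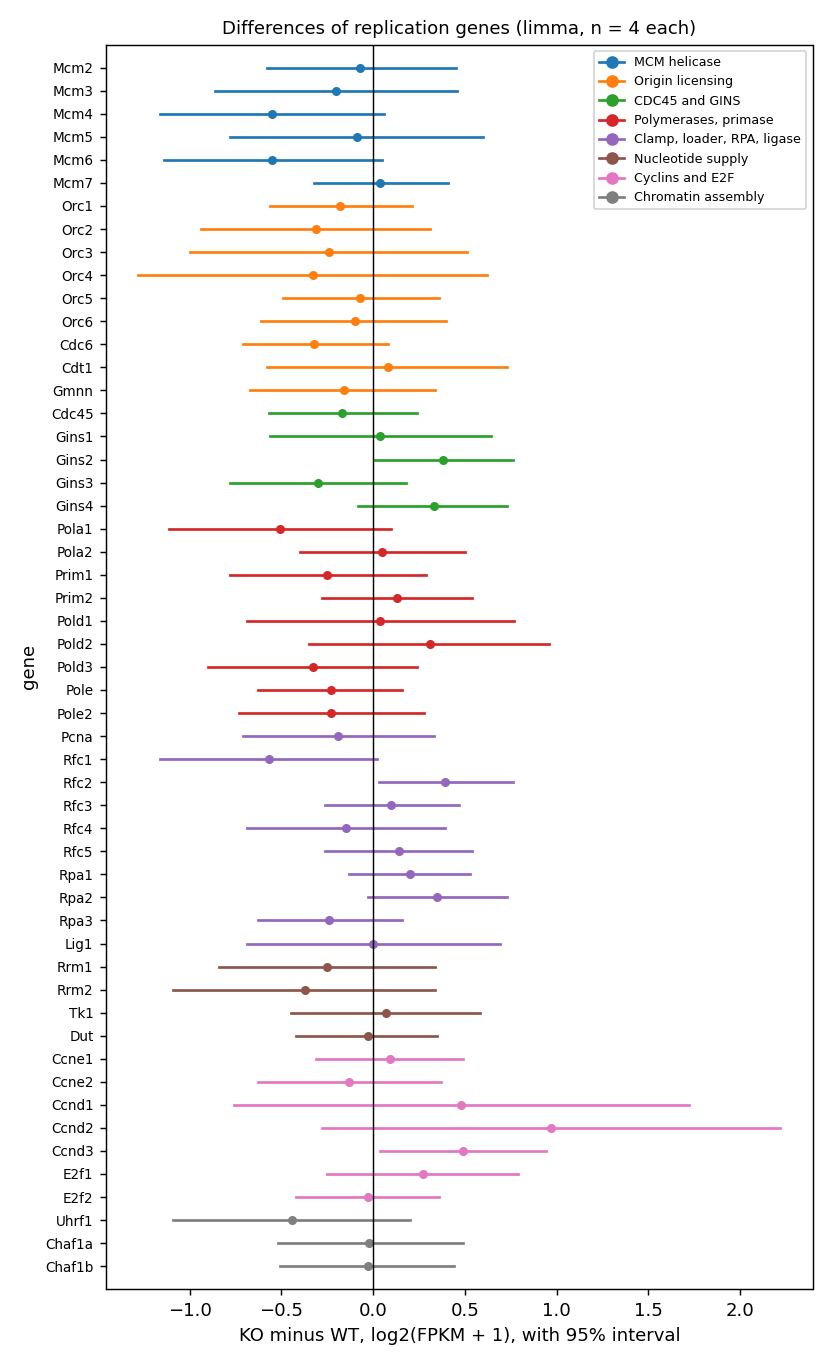
KO minus WT differences of the 53 replication genes on the log2(FPKM + 1) scale (x axis), with 95% intervals from limma, 4 libraries per group, coloured by role. The intervals of Gins2, Rfc2 and Ccnd3 lie above 0 and all others include 0; the point estimates run from -0.57 for Rfc1 to 0.97 for Ccnd2.

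What varied was the library. The median over the 53 genes, as a log2 difference from the WT mean, was -0.17, 0.19, -0.28 and -0.05 in KO 1 to 4 and -0.08, -0.08, -0.02 and 0.20 in WT 1 to 4. KO 2 and WT 4 thus lay together at the top: 46 and 41 of the 53 genes were above the WT mean there. KO 3 held the lowest value of all 8 libraries for 23 genes and KO 1 for 15, while KO 4 held it for 2 and KO 2 for 0. Counts of this kind were not made over all genes, so they are not shown to be particular to replication genes. KO 1 and KO 2, both female, stood on opposite sides of the WT mean. For all 14145 genes the medians were -0.06, 0.04, -0.17 and -0.08 in KO 1 to 4 and between -0.01 and 0.01 in WT libraries. In bulk RNA fewer cells in S phase and less replication transcript per cell cannot be told apart.

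**Figure D2:**
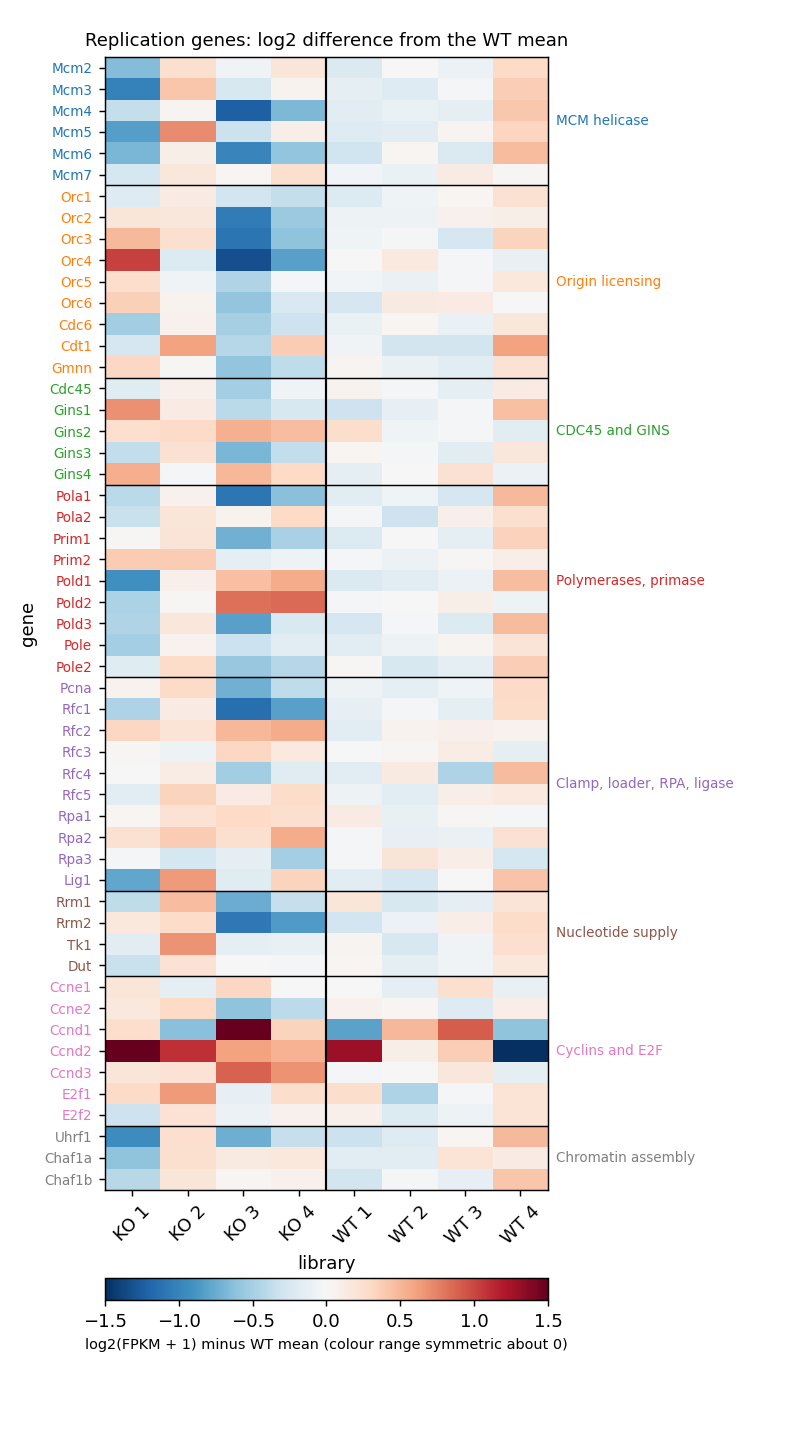
Each row is a replication gene and each column a library, with KO left of WT; colour is the log2(FPKM + 1) difference from the mean of the 4 WT libraries. KO 1 is low for Mcm2, Mcm3, Mcm5, Pold1, Lig1 and Uhrf1, KO 3 is low for Mcm4, Mcm6, Orc2, Orc3, Orc4, Pola1, Rfc1 and Rrm2, and KO 2 and WT 4 are mostly above the WT mean.

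The MCM helicase is a ring of the 6 subunits Mcm2 through Mcm7, and its genes showed both low KO libraries. Mcm4 (GRCm38 chromosome 16, 15623897 to 15637400) was at 8.28, 11.17, 4.07 and 6.42 FPKM in KO 1 to 4 and at 9.55, 10.04, 9.77 and 14.67 FPKM in WT 1 to 4. Mcm6 (chromosome 1, 128331590 to 128359664) was at 6.38, 11.57, 4.98 and 6.84 FPKM in KO 1 to 4 and at 8.64, 11.10, 9.23 and 15.54 FPKM in WT 1 to 4. For both genes 3 of 4 KO libraries lay below every WT library and KO 2 lay inside the WT range. The log2 difference was -0.55 for Mcm4 (SE 0.27, limma adjusted p = 0.295) and -0.55 for Mcm6 (SE 0.26, limma adjusted p = 0.288). Mcm3 was at 2.81, 9.30, 5.50 and 6.96 FPKM in KO 1 to 4 and at 5.97, 5.75, 6.51 and 8.91 FPKM in WT 1 to 4, so KO 1 was low and KO 2 the highest of all 8. Mcm5 was likewise lowest in KO 1 and highest in KO 2, at 1.62, 6.61, 2.72 and 3.96 FPKM in KO 1 to 4 and 3.07, 3.16, 3.78 and 4.82 FPKM in WT 1 to 4. Mcm2 averaged 6.95 ± 2.01 FPKM in KO and 7.17 ± 1.30 FPKM in WT, and Mcm7 averaged 13.3 ± 2.07 FPKM in KO and 12.8 ± 0.921 FPKM in WT (SD, n = 4 each). In KO 3, Mcm4 and Mcm6, with transcript GC of 45.5% and 47.3%, lay below every WT library, and so, by less, did Mcm3 and Mcm5, at 52.6% and 51.9%, whereas Mcm2 and Mcm7, at 51.7% and 53.4%, were within the WT range. As log2 differences from the WT mean, KO 3 was at -1.224 for Mcm4 and -0.986 for Mcm6. For Mcm2, Mcm3, Mcm5 and Mcm7 it was at -0.049, -0.244, -0.324 and 0.031. The part of GC content in this was not tested.

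**Figure D3:**
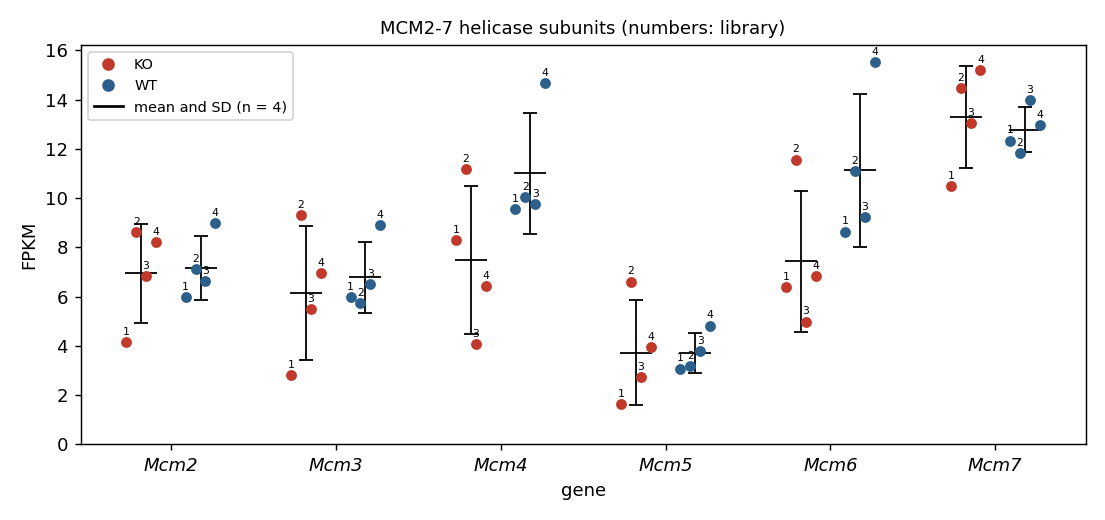
FPKM of the 6 MCM helicase subunits in each library (points, numbered by library), KO in red left of WT in blue, with mean and SD (n = 4). KO 1 is the lowest library for Mcm2, Mcm3, Mcm5 and Mcm7, whereas KO 3 is the lowest for Mcm4 and Mcm6.

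Origin licensing genes had lower KO means in 8 of 9 cases, with a median of -0.18 and none past the threshold. Cdc6, the ATPase that helps load the helicase, was at 0.28, 0.92, 0.31 and 0.48 FPKM in KO 1 to 4 and at 0.72, 0.88, 0.72 and 1.07 FPKM in WT 1 to 4 (log2 difference -0.32, SE 0.18, limma adjusted p = 0.339). Only KO 2 reached the WT range, and at this level KO 1 and KO 3 rest on few reads: the lowest library of Cdc6 had 27. Orc1, the largest ORC subunit, was at 0.42, 0.77, 0.34 and 0.27 FPKM in KO 1 to 4 and at 0.42, 0.56, 0.66 and 0.91 FPKM in WT 1 to 4 (limma adjusted p = 0.564). The ORC core subunits split the KO libraries. Orc4 was at 11.59, 4.40, 1.49 and 2.53 FPKM in KO 1 to 4 and at 5.17, 5.85, 5.09 and 4.76 FPKM in WT 1 to 4, so KO 1 stood above every other library and the remaining KO libraries below every WT library. Orc2 (9.03, 8.96, 3.26 and 5.00 FPKM in KO 1 to 4, against 7.36 to 8.37 FPKM in WT) and Orc3 (9.31, 7.67, 2.44 and 3.82 FPKM in KO 1 to 4, against 5.16 to 8.27 FPKM in WT) had the same low pair, KO 3 and KO 4. The log2 difference was -0.31 for Orc2 (95% interval -0.94 to 0.31) and -0.24 for Orc3. Orc2 shares 29.8% of its exon bases with Nif3l1 on the opposite strand, and the labels do not say whether reads were counted by strand. Cdt1, the other loading factor, averaged 3.77 ± 1.60 FPKM in KO and 3.47 ± 1.43 FPKM in WT, and Gmnn, which encodes geminin, averaged 3.42 ± 1.25 FPKM in KO and 3.82 ± 0.561 FPKM in WT (SD, n = 4 each).

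The activators of the loaded helicase went both ways. Gins2, a GINS subunit, was at 1.84, 1.91, 2.45 and 2.29 FPKM in KO 1 to 4 and at 1.85, 1.27, 1.36 and 1.11 FPKM in WT 1 to 4, a log2 difference of 0.38 (SE 0.17, limma adjusted p = 0.255). WT 1 matched KO 1 and the other WT libraries were lower than every KO library. Gins2 shares 67.3% of its exon bases with Gse1 on the opposite strand, so these values may hold reads of both genes. Gins4 was the most abundant of the group, at 20.45, 13.47, 19.76 and 17.07 FPKM in KO 1 to 4 and 12.32, 13.83, 16.24 and 12.87 FPKM in WT 1 to 4 (limma adjusted p = 0.333). Gins3 pointed the other way at 1.06, 2.13, 0.65 and 1.06 FPKM in KO 1 to 4 and 1.71, 1.60, 1.37 and 2.00 FPKM in WT 1 to 4 (limma adjusted p = 0.440). All 4 GINS proteins form a single complex, and per length the Gins4 transcript exceeded the others by a wide margin in both groups. Cdc45 averaged 1.99 ± 0.502 FPKM in KO and 2.33 ± 0.261 FPKM in WT (SD, n = 4 each).

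Polymerase genes had higher KO means in 4 of 9 cases, with a median of -0.23 and none past the threshold. Pola1, the catalytic subunit of polymerase alpha, was at 1.00, 1.77, 0.25 and 0.71 FPKM in KO 1 to 4 and at 1.34, 1.52, 1.21 and 2.71 FPKM in WT 1 to 4 (log2 difference -0.51, SE 0.27, limma adjusted p = 0.319). KO 2 again lay inside the WT range with the other KO libraries below it. Pold1, the catalytic subunit of polymerase delta, was at 2.06, 5.10, 6.96 and 7.51 FPKM in KO 1 to 4 and at 4.00, 4.15, 4.47 and 7.01 FPKM in WT 1 to 4. Pold2, its accessory subunit, was at 6.22, 9.20, 16.82 and 17.14 FPKM in KO 1 to 4 and at 8.86, 9.13, 9.71 and 8.55 FPKM in WT 1 to 4. Both delta subunits were lowest in KO 1 and high in KO 3 and KO 4, the reverse of Orc4. Pold3, a further delta subunit, was at 3.72, 6.21, 2.64 and 4.49 FPKM in KO 1 to 4, against 4.40 to 7.93 FPKM in WT, and did not share that pattern. Pole, the catalytic subunit of polymerase epsilon, was at 0.36, 1.01, 0.56 and 0.74 FPKM in KO 1 to 4 and at 0.74, 0.84, 1.00 and 1.22 FPKM in WT 1 to 4 (limma adjusted p = 0.457), with KO 1 and KO 3 below every WT library. Of the remaining genes Pola2 and Prim2 had a higher and Prim1 and Pole2 a lower KO mean, and their limma adjusted p values ran from 0.566 to 0.899.

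Genes of the clamp, its loader and single-strand DNA protection held the only member of the machinery whose groups separated. Rfc2, a subunit of the clamp loader (chromosome 5, 134581366 to 134601805), was at 6.01, 5.54, 7.01 and 7.35 FPKM in KO 1 to 4 and at 4.02, 4.86, 4.96 and 4.90 FPKM in WT 1 to 4. Every KO library lay above every WT library, at a log2 difference of 0.39 (SE 0.16, 95% interval 0.03 to 0.76, limma adjusted p = 0.239). Rfc2 shares 15.1% of its exon bases with Lat2 on the opposite strand. Rfc1, the large subunit of the same loader, was at 5.54, 8.82, 3.13 and 4.13 FPKM in KO 1 to 4 and at 7.24, 7.90, 7.21 and 9.92 FPKM in WT 1 to 4, a log2 difference of -0.57 (SE 0.27, limma adjusted p = 0.275). The loader's subunits thus pointed in different directions, and Rfc3, Rfc4 and Rfc5 had log2 differences of 0.10, -0.15 and 0.14. Pcna, the clamp, was at 25.53, 30.04, 14.46 and 18.62 FPKM in KO 1 to 4 and at 23.16, 22.12, 23.42 and 30.16 FPKM in WT 1 to 4 (log2 difference -0.19, limma adjusted p = 0.648). KO 3 and KO 4 were the low pair, and KO 2 lay close to WT 4; Pcna also has 2 annotated processed copies whose reads could be shared. Rpa2, a subunit of the single-strand binding protein RPA, was at 3.74, 4.28, 3.81 and 4.97 FPKM in KO 1 to 4 and at 3.02, 2.72, 2.80 and 3.78 FPKM in WT 1 to 4 (limma adjusted p = 0.288). Only WT 4 reached the KO range of Rpa2. Rpa1 averaged 11.5 ± 0.987 FPKM in KO and 9.87 ± 0.733 FPKM in WT, and Rpa3 averaged 7.76 ± 1.21 FPKM in KO and 9.31 ± 1.37 FPKM in WT (SD, n = 4 each). Lig1, the replicative ligase, was at 2.05, 7.12, 3.62 and 5.59 FPKM in KO 1 to 4 and at 3.64, 3.38, 4.26 and 6.01 FPKM in WT 1 to 4. As for Mcm5, KO 1 was the lowest and KO 2 the highest of all 8 libraries.

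Nucleotide supply showed the same library effects. Rrm2, the S-phase subunit of ribonucleotide reductase, was at 11.70, 12.79, 4.43 and 5.29 FPKM in KO 1 to 4 and at 8.34, 9.70, 11.18 and 12.76 FPKM in WT 1 to 4 (log2 difference -0.37, SE 0.32, limma adjusted p = 0.517). KO 1 and KO 2 were among the highest libraries and KO 3 and KO 4 the lowest. Rrm1, the large subunit, was at 3.10, 6.36, 2.20 and 3.20 FPKM in KO 1 to 4 and at 5.08, 3.53, 3.84 and 5.12 FPKM in WT 1 to 4, so KO 2 was the highest of all 8. Tk1, thymidine kinase, was at 1.50, 3.52, 1.58 and 1.61 FPKM in KO 1 to 4 and at 1.90, 1.40, 1.72 and 2.35 FPKM in WT 1 to 4. Dut, which removes dUTP, differed little, at 7.72 ± 1.34 FPKM in KO and 7.88 ± 0.812 FPKM in WT (SD, n = 4 each). Among chromatin genes Uhrf1, which guides DNA methylation to new strands, was at 2.73, 7.53, 3.33 and 4.64 FPKM in KO 1 to 4 and at 4.76, 5.26, 6.32 and 9.06 FPKM in WT 1 to 4 (log2 difference -0.44, limma adjusted p = 0.399). Chaf1a, a chromatin assembly factor subunit, was at 2.17, 4.68, 4.29 and 4.35 FPKM in KO 1 to 4 and at 3.29, 3.30, 4.51 and 4.22 FPKM in WT 1 to 4, and its partner Chaf1b was at 1.43, 2.69, 2.32 and 2.41 FPKM in KO 1 to 4 and at 1.69, 2.22, 1.99 and 3.33 FPKM in WT 1 to 4. KO 1 was the lowest library for both, the log2 differences were -0.02 and -0.03, and Chaf1a shares 52.5% of its exon bases with Ubxn6 on the opposite strand.

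Cyclins D1 and D2 had the highest levels of the 53 genes and the widest intervals. Ccnd1, cyclin D1, was at 104.38, 55.75, 335.67 and 108.87 FPKM in KO 1 to 4 and at 49.22, 122.64, 163.05 and 56.35 FPKM in WT 1 to 4. The groups overlapped widely, and the log2 difference of 0.48 had an interval of -0.76 to 1.72 (limma adjusted p = 0.631). Ccnd1 shares 23.4% of its exon bases with LTO1 on the opposite strand, and Ccne2 17.4% with Ints8. Ccnd2, cyclin D2, was at 95.30, 63.41, 44.80 and 42.35 FPKM in KO 1 to 4 and at 72.92, 31.11, 37.98 and 8.05 FPKM in WT 1 to 4, a log2 difference of 0.97 with an interval of -0.28 to 2.22 (limma adjusted p = 0.352). WT 4, high for most replication genes, had by far the lowest Ccnd2. Ccnd3, cyclin D3 (chromosome 17, 47505051 to 47599691), was at 8.58, 8.86, 14.66 and 12.49 FPKM in KO 1 to 4 and at 7.26, 7.43, 8.53 and 6.73 FPKM in WT 1 to 4 (log2 difference 0.49, SE 0.20, limma adjusted p = 0.236). The groups of Ccnd3 did not overlap, although KO 1 and WT 3 were nearly equal; a processed copy of Ccnd3 is annotated. E2f1 was at 3.46, 4.70, 2.35 and 3.39 FPKM in KO 1 to 4 and at 3.38, 1.66, 2.61 and 3.22 FPKM in WT 1 to 4 (limma adjusted p = 0.515). Ccne1 averaged 3.51 ± 0.614 FPKM in KO and 3.24 ± 0.537 FPKM in WT, Ccne2 0.842 ± 0.537 FPKM in KO and 0.958 ± 0.171 FPKM in WT, and E2f2 0.582 ± 0.243 FPKM in KO and 0.608 ± 0.198 FPKM in WT (SD, n = 4 each).

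**Figure D4:**
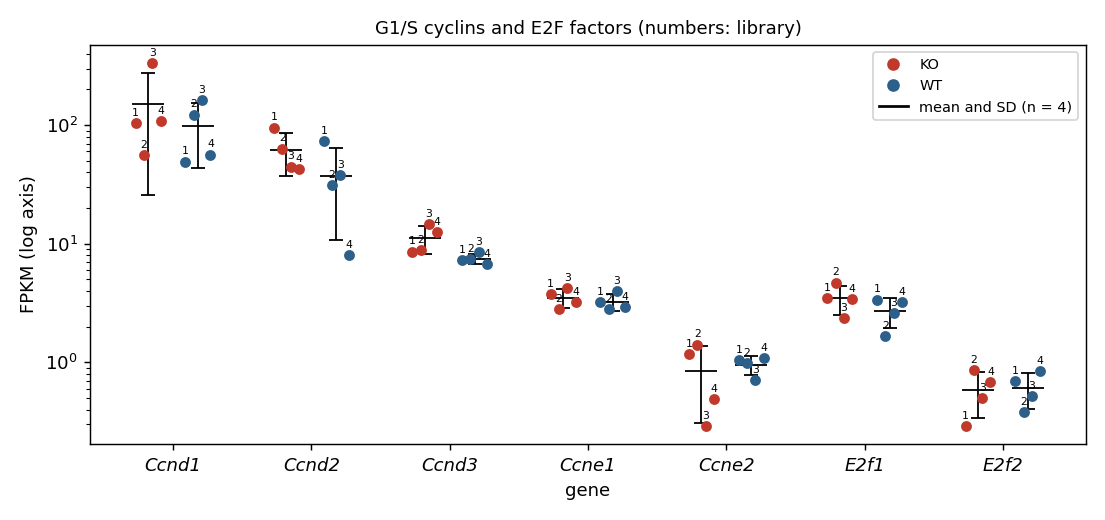
FPKM of cyclins D1 to D3, cyclins E1 and E2, E2f1 and E2f2 in each library on a log axis (points, numbered by library), KO in red left of WT in blue, with mean and SD (n = 4). Ccnd1 is highest in KO 3 and Ccnd2 lowest in WT 4, and Ccnd3 is the single gene here without overlap.

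Differences from the WT mean varied with the base composition of the transcripts, in opposite directions in KO 1 and in KO 3 and KO 4. Over the 53 genes, whose longest transcripts have 34.2% to 61.0% GC (median 49.2%), Spearman's rho between GC content and the log2 difference from the WT mean was -0.34, 0.25, 0.57 and 0.70 in KO 1 to 4 and -0.03, -0.41, 0.25 and 0.03 in WT 1 to 4. These are descriptions across genes of single libraries, which share depth and preparation. For the 27 genes at or below the median GC the library medians were 0.02, 0.17, -0.60 and -0.37 in KO 1 to 4, and for the 26 above it they were -0.25, 0.22, 0.02 and 0.21. The low pair for GC-poor replication genes was therefore KO 3 and KO 4, and for GC-rich ones the low library was KO 1. Over the 12058 genes with a mean of at least 1 FPKM and a GC value the rho was -0.29, 0.06, 0.65 and 0.62 in KO 1 to 4 and -0.25 to 0.33 in WT libraries, so the trend was not confined to replication genes. Exon length had little relation to the values of the 53 genes, with rho between -0.18 and 0.15 in all 8 libraries. Over the 12058 genes the rho with length was -0.31, -0.08, -0.43 and -0.41 in KO 1 to 4 and 0.02, 0.10, -0.28 and 0.13 in WT 1 to 4. After length and GC trends were taken out, the library medians of the 53 genes were -0.16, 0.15, -0.12 and -0.12 in KO 1 to 4 and -0.06, -0.07, -0.06 and 0.19 in WT 1 to 4. The rho with GC was then 0.11, 0.19, -0.15 and -0.03 in KO 1 to 4 and -0.14, -0.34, -0.05 and 0.22 in WT 1 to 4, so that of WT 2 moved little. Again 0 of the 53 genes passed, where 0.0142% of all genes did.

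**Figure D5:**
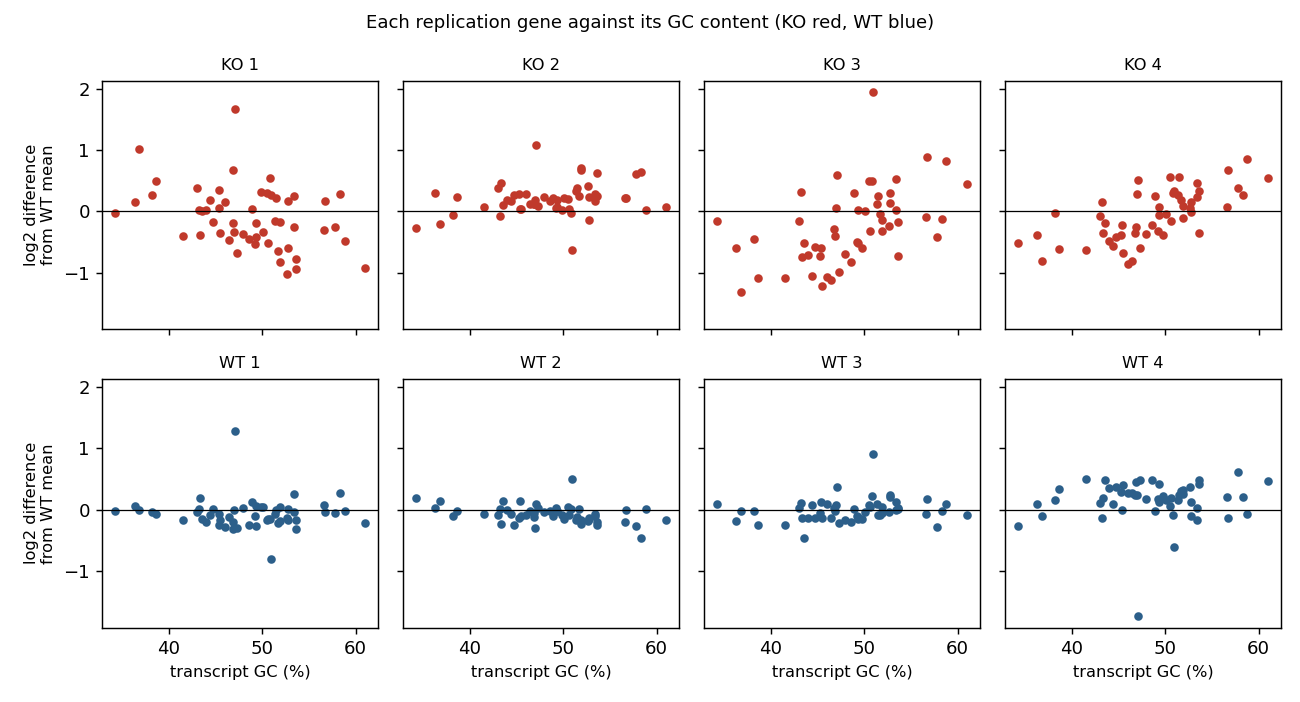
Each point is a replication gene, placed by the GC content of its longest transcript (x axis, percent) and its log2(FPKM + 1) difference from the WT mean (y axis) in the named library, KO in the upper row and WT in the lower. Points climb from left to right in KO 3 and KO 4 (rho 0.57 and 0.70) and tend to descend in KO 1 (rho -0.34) and WT 2 (rho -0.41).

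Setting the male KO libraries, KO 3 and KO 4, against the 4 male WT libraries gave 17 of 53 replication genes past the threshold (32.1%; limma, adjusted over all genes), where 44.4% of all genes passed. Of the 17, 13 were lower in KO and 4 higher. Over all genes, 3779 of the 6275 past the threshold were lower in KO and 2496 higher. The lower ones included Orc4 (log2 difference -1.06, SE 0.17, limma adjusted p = 0.00467), Rfc1 (-0.97), Rrm2 (-0.96), Mcm4 (-0.95), Orc3 (-0.85), Pola1 (-0.85), Orc2 (-0.81), Mcm6 (-0.79) and Pcna (-0.55). The 4 higher ones were Pold2 (0.84, SE 0.10, limma adjusted p = 0.00324), Ccnd3 (0.78), Rfc2 (0.53) and Gins2 (0.50). The 13 lower genes had transcript GC of 36.3% to 49.8% and the 4 higher ones 50.5% to 58.8%, so direction and base composition cannot be told apart in this subset. With KO 1 and KO 2 alone against WT none of the 53 passed (0 by limma, where 0.0990% of all genes did), 27 were higher and 26 lower, and the median was 0.02.

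Other genes of the pathway were read from lists that are likewise not independent of earlier results. Of 39 further replication factors 35 were measured, 8 with a higher and 27 with a lower KO mean, a median of -0.22 and 0 past the threshold. The lowest p values belonged to Topbp1, which helps to activate origins and the ATR checkpoint (3.31 ± 1.87 FPKM in KO and 5.93 ± 0.805 FPKM in WT), Pold4, a small polymerase delta subunit (49.8 ± 19.1 and 29.8 ± 6.32 FPKM in the same order), Atad5, which unloads the clamp, Mtbp, an origin firing factor, and Top2a, which untangles finished DNA (2.28, 6.96, 0.92 and 1.80 FPKM in KO 1 to 4 and 5.53, 4.40, 4.82 and 7.54 FPKM in WT 1 to 4). Their limma adjusted p values were 0.217 to 0.248. Of 24 measured regulators of the G1/S step 6 were higher and 18 lower, with a median of -0.24 and 0 past the threshold. Cdkn2a, which encodes the cell cycle inhibitors p16 and p19, was at 140.22, 69.49, 164.08 and 162.58 FPKM in KO 1 to 4 and at 70.50, 40.09, 49.25 and 12.40 FPKM in WT 1 to 4 (log2 difference 1.77, SE 0.49, limma adjusted p = 0.154). KO 2, high for replication genes, had the lowest Cdkn2a of the KO libraries, and WT 4, the other high library, the lowest of all 8. WT 1 had nearly the Cdkn2a level of KO 2, but its median of replication genes was -0.08 and that of KO 2 was 0.19. A relation between Cdkn2a and the replication genes was not tested. Rbl1, a pocket protein, averaged 2.00 ± 1.18 FPKM in KO and 3.88 ± 0.587 FPKM in WT, E2f3 5.68 ± 1.33 FPKM in KO and 8.65 ± 0.446 FPKM in WT without overlap, and Cdk4, the cyclin D kinase, 110 ± 14.9 FPKM in KO and 79.9 ± 5.80 FPKM in WT without overlap (SD, n = 4 each; limma adjusted p of 0.183 to 0.217).

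Mitotic genes, the next stage of the cycle, had a lower KO mean in 27 of 27 cases, with a median of -0.34 and 0 past the threshold, whereas 32 of 53 replication genes were lower; the difference between the lists was not tested. Their library medians were -0.41, 0.11, -0.77 and -0.49 in KO 1 to 4 and 0.04, -0.16, -0.10 and 0.20 in WT 1 to 4, with KO 2 and WT 4 again at the top. Ccnb1, the mitotic cyclin B1, was at 2.15, 3.51, 0.94 and 1.87 FPKM in KO 1 to 4 and at 4.20, 3.23, 3.11 and 4.91 FPKM in WT 1 to 4 (limma adjusted p = 0.220).

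Markers of other cells varied between the same libraries, as did the 9 measured tubular markers, with sums of 817 to 6170 FPKM in KO and 1380 to 3000 FPKM in WT. Krt8 and Krt18 made up most of the highest sum (3553.02 and 2154.53 FPKM in KO 3). Of the 9, 4 had a higher and 5 a lower KO mean, with 0 past the threshold. The lower ones included Epcam (log2 difference -1.22, limma adjusted p = 0.177) and Cdh1 (-1.26, limma adjusted p = 0.22). The summed level of 12 macrophage markers was 611, 1800, 238 and 1150 FPKM in KO 1 to 4 and 1090, 104, 117 and 121 FPKM in WT 1 to 4, higher in 11 of 12 KO means. KO 2, with the highest sum, and WT 4, with a low one, had similar medians of replication genes (0.19 and 0.20). Of 8 fibroblast markers 5 were measured, with sums of 587 to 1770 FPKM in KO and 133 to 1170 FPKM in WT. Acta2, which smooth muscle cells and myofibroblasts also express, made up most of the KO sums (1745.55 FPKM in KO 1). The other 4 had lower KO means, and the median of the 5 log2 differences was -1.47. Pdgfrb (1.59 ± 0.82 FPKM in KO and 7.66 ± 6.43 FPKM in WT) and Col3a1 (1.40 ± 0.60 FPKM in KO and 8.33 ± 10.2 FPKM in WT) did not overlap (SD, n = 4 each). Of 6 endothelial markers 2 were measured, at sums of 1.03 to 3.00 FPKM in KO and 4.72 to 6.37 FPKM in WT, and Pecam1, Cdh5, Kdr and Tek were not analysed here. The part of these cells in the replication values was not tested.

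Genes with and without an E2F word were also set side by side over libraries. The 17 with a word had library medians of -0.40, 0.22, -0.42 and -0.23 in KO 1 to 4 and -0.14, -0.10, -0.08 and 0.36 in WT 1 to 4. The 25 with a promoter and no word had 0.01, 0.19, -0.13 and -0.03 in KO 1 to 4 and -0.04, -0.09, -0.02 and 0.16 in WT 1 to 4. Genes with a word, among them Mcm6, Pola1, Cdc6 and Uhrf1 printed above, thus spread further between libraries of both groups, with medians of transcript GC of 49.2% and 48.9%. The medians of the log2 difference were -0.20 with a word and -0.07 without, and this gap was not tested.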

How the data were processed

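The authors deposited 1 table of 14145 genes with 1 value per library; the deposited FPKM were scaled by the authors to gene length and library depth, as the values themselves show. Per the submitters' processing notes, FastQC, STAR 2.4.1d and DESeq2 were used with GRCm38; no counter, strand setting or row filter is stated there. The table also holds the authors' log2 fold changes, p-values and marks (log2 and p-value columns as deposited). Column names matched the sample titles, and 0 value columns were left without a sample.

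Multiplied by exon-union length (GENCODE M21, 14134 genes), FPKM fall on whole reads: values of up to 200 reads lay within 0.05 of whole in 95.0% to 95.5% of cases, and in 8.60% to 10.6% when the step was wrong on purpose. Replicates differed beyond sampling noise (chi-square per gene 11.7 to 330.0).

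Tests used limma 3.58.1 in R 4.3.3 on log2(FPKM + 1), trended variance, genotype as the only term, with Benjamini-Hochberg adjustment over all genes. This scale understates changes of low genes. The fit was also run on simulated data in which both groups had the spread of the WT libraries. That run does not cover the wider spread between KO libraries. Named in full were the 3 genes of lowest p in each of 8 role groups, the 3 of highest level, and others marked by the library patterns, which were chosen after their values were seen. Members and lists were chosen with earlier results of these data known. Alternatives were other pseudocounts (0.1 and 0.5), scaling, a low-value filter (FPKM 1 or more in 4 or more libraries), no variance trend, limma-voom on recovered reads, removal of length and GC trends (lowess, span 0.3), a sex term, a replicate block and leaving out libraries. Python 3.11.15 with pandas 2.3.3, numpy 2.4.6, scipy 1.17.1 and matplotlib 3.10.9 was used.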

Additional observations from a re-analysis of the deposited data

Results flagged for a closer look

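Of 106 groups of 4 values (53 genes in KO and in WT), 6 had a library whose gap to its nearest neighbour took up more of the group's range than Dixon's 95% critical value for 4 values; chance alone gives about 1 in 20. In the KO libraries, Tk1 was at 3.52 FPKM in KO 2, with the others at 1.50 to 1.61, and Chaf1a was at 2.17 FPKM in KO 1, with the others at 4.29 to 4.68. In the WT libraries, WT 4 was high for Mcm4 (14.67 FPKM, others 9.55 to 10.04), Pold1 (7.01 FPKM, others 4.00 to 4.47) and Pcna (30.16 FPKM, others 22.12 to 23.42), and WT 1 was low for Rfc2 (4.02 FPKM, others 4.86 to 4.96).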

How the results depend on the processing

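No replication gene passed (0 of 53) under median-ratio scaling, either other pseudocount, the filter, no variance trend, removal of length and GC trends, limma-voom without sample weights (an alternative chosen after seeing the data, with 7 of all genes past the threshold), without KO 3 and KO 4, or with any single library left out. With the replicate number as a block 0 of 53 and 1 of all genes passed; the numbers are not shown to pair the libraries, since the deviations of same-numbered libraries correlated at 0.05, -0.21, 0.60 and -0.05. Members were called with the sex term (12 of 53, with 4838 of all genes, 34.2%) and without KO 1 and KO 2 (17, with 6275 of all genes, 44.4%). These 2 fits rest on KO 3 and KO 4. By limma-voom with sample weights 20 members were called (7505 of all genes, 53.1%). Its weights were 0.149, 0.236, 0.582 and 3.28 in KO 1 to 4, so among KO libraries it rests mostly on KO 4. Over all genes the count was 11, with 3 at a pseudocount of 0.1, 2 with length and GC trends removed, and 1 to 1139 with single libraries left out (1139 without KO 2). Leaving out single libraries, 15 to 28 of the 53 genes were higher in KO (15 without WT 2, 28 without WT 4), with medians of -0.17 to 0.05. Among 26 named genes, 30 of 517 values changed sign, none where either value had an unadjusted p below 0.05. Depth limits Orc1, Pole2, Ccne2, Gins1, E2f2 and Cdc6, with 17 to 27 reads in their lowest library.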

Other observations

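A few further transcripts were chosen after their values were seen. Chtf8, Rnaseh2c and Tipin, from the list of further replication factors, showed KO 1 against KO 3 and KO 4. Chtf8, a subunit of an alternative clamp loader, was at 18.09, 43.93, 59.27 and 63.76 FPKM in KO 1 to 4 and 39.38 to 43.85 FPKM in WT. Rnaseh2c, a subunit of the enzyme that removes RNA from DNA, was at 8.36, 17.63, 39.21 and 35.21 FPKM in KO 1 to 4 and 16.49 to 20.20 FPKM in WT. Tipin, which steadies stalled forks, ran the other way at 8.22, 7.06, 1.97 and 2.42 FPKM in KO 1 to 4 and 4.34 to 5.86 FPKM in WT. Mki67, a proliferation marker from the mitosis list, did not share that pattern. Its values were 1.31, 6.01, 0.30 and 0.80 FPKM in KO 1 to 4 and 3.87, 2.82, 2.55 and 5.27 FPKM in WT 1 to 4. KO 2 was the highest of all 8 and the other KO libraries lay below every WT library (limma adjusted p = 0.326). Cdkn1a, the inhibitor p21 from the G1/S list, was at 227.58, 203.03, 650.45 and 478.89 FPKM in KO 1 to 4 and 329.61, 330.31, 390.94 and 130.88 FPKM in WT 1 to 4 (limma adjusted p = 0.684).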
